A study of Mus musculus with 2 samples.

Results

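Tight, adherens and related junctions seal the contacts between neighbouring endothelial cells, and diaphragm and caveolar proteins set how much passes through the cells themselves. Vessel types differ in this equipment: arteries and barrier vessels are sealed tightly, post-capillary venules are leaky and carry Plvap diaphragms, and initial lymphatics have loose, button-like contacts. Vessels and sheaths inside peripheral nerves form a barrier of their own.

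The 9 genes described here encode junction and barrier proteins of endothelium and were listed by symbol without reference to their levels: Cldn5, Ocln, Cldn1, Jam2, Esam, Tjp1, Cdh5, Pecam1 and Plvap. All 9 were found among the 32285 genes counted. The cells came from the temporomandibular joint (TMJ) of female C57BL/6 mice, aged 8 to 10 weeks per the labels, after injection of complete Freund's adjuvant (CFA) into the joint, which both groups received. One library was from wild-type (WT) mice and one from mice carrying a Prox1 mutation, named Prox1+/− by the study, so the allele was present in every cell of the animal and not only in lymphatic endothelium. The study compared them to ask how a lymphatic defect changes the inflamed joint. There was 1 library per genotype and no joint without CFA, and the number of mice per library is not given in the sources used here. No test between genotypes could therefore be made, and every interval below covers counting error only.

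The WT library held 53517206 UMIs in 5709 barcodes and the mutant library 62446987 UMIs in 7846 barcodes, with 10 barcodes in common. After filtering, 4352 WT cells (median 6997 UMIs) and 5757 mutant cells (median 4848 UMIs) remained. They formed 43 clusters, of which 34 were named as 18 cell types from marker genes. Levels are in CPM: a gene's UMIs in a set of cells, divided by all UMIs of that set and multiplied by 1000000. Prox1 itself was at 11.6 CPM over all WT and 5.8 CPM over all mutant cells, which hold different shares of the types that express it. By type it was lower in mutant than in WT lymphatic endothelial cells (1503 and 633 CPM), and higher in mutant satellite cells (317 and 487 CPM) and venous endothelial cells (10.03 and 36.3 CPM), so its direction over all cells was not that of every type. Haemoglobin RNA took 3.39% of the UMIs of kept WT cells and 8.76% of those of kept mutant cells. Several mutant types were shallow and rich in haemoglobin, so ratios between genotypes are given for endothelial cells and only levels elsewhere.

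Endothelial clusters took their name from 12 markers, so finding these markers in them is no separate check of the name. All 12 endothelial markers, among which none of the 9 genes was counted, were raised in each of 4 endothelial clusters, both libraries pooled. In endothelial cells all 12 were detected in both libraries and summed to 10978 CPM in 1041 WT and 10571 CPM in 577 mutant cells. These cells made up 23.9% of kept WT cells and 10.0% of kept mutant cells. Unnamed clusters made up 13.5% of kept WT and 30.7% of kept mutant cells, which also lowers the other shares in the mutant. Whether the tissue held less endothelium was not tested. The 9 genes were left out of the clustering as well, so their levels by cell type did not shape the cell types. A further cluster of 218 WT and 202 mutant droplets had 11 of the 12 markers raised but stayed unnamed. It was shallow, with a median of 1708.5 and 1690.5 UMIs, and none of the 12 markers was among its leading genes. One of the named endothelial clusters was shallower, at 1330 and 1000 UMIs, but had the marker Ecscr among its leading genes. Wherever endothelial cells are set against all other cells below, this cluster is among the others.

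Promoter sequences of 2 claudins are shown because these genes had opposite distributions: Cldn5 was high in endothelial cells and Cldn1 was nearly absent from them. Each runs 5′ to 3′ from 250 bases before to 50 bases after the start in the RefSeq annotation of GRCm38.p6, and capitals mark GGGCGG on either strand. The Cldn5 window is chr16:18776597-18776896 on the plus strand, and the Cldn1 window is chr16:26371790-26372089 on the minus strand.
Cldn5: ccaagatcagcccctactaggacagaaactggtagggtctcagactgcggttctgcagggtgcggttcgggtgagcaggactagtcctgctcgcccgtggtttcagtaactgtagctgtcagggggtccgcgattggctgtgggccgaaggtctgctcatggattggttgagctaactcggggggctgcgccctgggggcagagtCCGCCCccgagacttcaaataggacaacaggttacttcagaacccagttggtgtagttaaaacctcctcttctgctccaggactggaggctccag
Cldn1: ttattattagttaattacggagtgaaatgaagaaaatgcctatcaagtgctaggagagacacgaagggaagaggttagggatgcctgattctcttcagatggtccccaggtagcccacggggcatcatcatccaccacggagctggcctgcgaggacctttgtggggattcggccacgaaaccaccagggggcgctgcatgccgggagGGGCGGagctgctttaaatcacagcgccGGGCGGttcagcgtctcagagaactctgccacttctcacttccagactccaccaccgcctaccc
GGGCGG occurred 1 time in the Cldn5 window and 2 times in the Cldn1 window, and 35.7% of 32851 promoter windows of this length hold it on either strand. CAGGTG, found in 20.2% of windows, was in neither. GGAA, found in 96.0% of windows, occurred 0 times in the Cldn5 window and 2 times in the Cldn1 window. Tjp1 and Ocln also had entries, with 2 GGGCGG matches for Tjp1. Cdh5, Pecam1, Esam, Jam2 and Plvap were not matched.

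Among the tight junction genes, Cldn5 (chromosome 16, 18776847 to 18778262, plus strand, GRCm38) encodes the main claudin of endothelium, the protein that closes the space between the cells. WT endothelial cells had 270 CPM (95% Poisson interval 258 to 283) and mutant endothelial cells 230 CPM (217 to 245). All other kept cells together had 3.67 CPM in WT and 3.6 CPM in mutant. Endothelial cells thus held 92.6% of all Cldn5 UMIs of kept WT cells and 85.7% of those of mutant cells. Next in order among types of at least 30 cells came satellite cells, the stem cells of muscle, at 40.6 CPM in WT, but 22 of their 26 UMIs lay in 1 droplet, and mutant satellite cells had 0 UMIs, which allows up to 12.0 CPM. Smooth muscle cells followed with 25.4 CPM in WT and 17.2 CPM in mutant. B cells had 0 Cldn5 UMIs in both libraries.

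Cldn5 was found in a minority of endothelial droplets. A UMI was seen in 36.5% of WT and 36.9% of mutant endothelial cells, at median depths of 4421 and 5630 UMIs, against 0.649% and 0.766% of erythroid cells, which should lack the gene and had median depths of 9160.5 and 9378 UMIs. After thinning each cell to 2000 UMIs the shares were 23.1% and 20.7% in endothelial cells and 0.336% and 0.162% in erythroid cells, with 120 WT and 64 mutant endothelial cells left out as shallower. The shares varied with vessel type: 92.7% of WT arterial cells had a Cldn5 UMI and 26.8% of WT capillary cells. Thinning left 80.0% and 17.0%.

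Occludin, encoded by Ocln (chromosome 13, 100496507 to 100552718, minus strand), is a tight junction protein of epithelia and of barrier endothelium. It was close to the limit of detection, with 11 UMIs in WT and 14 UMIs in mutant endothelial cells, or 1.57 CPM (0.784 to 2.81) and 3.01 CPM (1.64 to 5.05). Its highest level in a type of at least 30 cells was in mutant epithelial cells, at 27.7 CPM (17.7 to 41.2) from 24 UMIs in 12 of 51 cells, whereas the WT library had 3 epithelial cells and 0 UMIs. Within mutant endothelium, 8 of the 14 UMIs were in arterial cells, where Ocln reached 25.3 CPM.

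Claudin 1, encoded by Cldn1 (chromosome 16, 26356642 to 26371841, minus strand), seals epithelia and the perineurium, the sheath around nerve fascicles. Endothelial cells had 2 UMIs in WT and 1 UMI in mutant, 0.286 CPM and 0.215 CPM. The highest level among types of at least 30 cells was in neutrophils in both libraries, where WT had 12.3 CPM (9.07 to 16.3) and mutant 16.5 CPM (13.4 to 20.03). Inside the neutrophils it lay mainly in 1 cluster led by the granule genes Camp and Ngp, with 21.9 CPM in 131 WT cells and 29.6 CPM in 163 mutant cells. WT mesenchymal cells had 6.75 CPM, an interval that overlapped the neutrophil one, and mutant mesenchymal cells had 2.30 CPM.

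At least 6 of 9 perineurial markers were present in 3 droplets of each library, all in mesenchymal clusters. These droplets were sought after the Cldn1 values had been seen. The 3 WT droplets held 4, 4 and 6 Cldn1 UMIs and the 3 mutant droplets 2, 5 and 0. That is 966 CPM in WT and 137 CPM in mutant, or 1446 and 729 CPM without the deepest droplet of each library, against 6.75 and 2.30 CPM in all mesenchymal cells. Droplets with 5 of the markers, 3 in WT and 2 in mutant, held 4 Cldn1 UMIs (90.2 CPM) and 0 UMIs (up to 26.0 CPM). The mutant droplet with 0 Cldn1 UMIs was the deepest, at 41680 UMIs, and held 9 of the 10 Ocln UMIs of the mutant droplets. The WT droplets held 4 Ocln, 6 Tjp1 and 5 Cdh5 UMIs, with Cdh5 in all 3 of them at 345 CPM (112 to 805). They held 0 UMIs of Cldn5, Pecam1, Esam, Jam2 and Plvap. The mutant droplets held 16 Tjp1 UMIs, 1 Plvap UMI and 0 Cdh5 UMIs.

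Jam2 (chromosome 16, 84774123 to 84825928, plus strand) encodes a junctional adhesion molecule of the immunoglobulin family. WT endothelial cells had 460 CPM (444 to 476) of it and mutant endothelial cells 426 CPM (408 to 445), with a UMI in 81.5% and 79.4% of them, 59.9% and 55.0% after thinning. The erythroid shares were 5.19% and 1.53%, and 2.013% and 0.324% after thinning. In the rest of the cells it was 17.3 CPM and 14.2 CPM. Of types with at least 30 cells, Schwann cells ranked next in WT at 38.8 CPM, most of it in non-myelinating Schwann cells, which had 85.8 CPM in WT against 13.4 CPM in myelinating ones. In mutant, epithelial cells ranked next at 27.7 CPM, and Schwann cells had 5.17 CPM (1.41 to 13.2). The 14 non-myelinating cells of the mutant had 3 UMIs, or 30.1 CPM (6.21 to 88.0). Mesenchymal cells were nearly level between the libraries, at 20.1 and 20.7 CPM.

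Esam (chromosome 9, 37528078 to 37538319, plus strand) encodes an endothelial adhesion molecule found at tight junctions. WT endothelial cells had 490 CPM (473 to 506) and mutant endothelial cells 380 CPM (363 to 398), with a UMI in 79.5% and 77.3% of them, 58.5% and 51.3% after thinning. It came next in the mural cells that wrap vessels. In smooth muscle cells the WT library had 160 CPM (141 to 180) and the mutant library 146 CPM (126 to 167), and in pericytes 147 CPM (117 to 182) and 168 CPM (127 to 217). A UMI was present in 72.4% of WT and 64.4% of mutant smooth muscle cells, and 28.9% and 22.0% after thinning, against 1.68% and 0.485% of erythroid cells after thinning. Cldn5 had 0 UMIs in the pericytes of both libraries.

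Tjp1 (chromosome 7, 65296165 to 65527781, minus strand) encodes ZO-1, the scaffold that ties junction proteins to actin, and 59.8% of its UMIs in WT and 53.7% in mutant were in endothelial cells. WT endothelial cells had 489 CPM (473 to 506) and mutant endothelial cells 486 CPM (466 to 506), with a UMI in 61.7% and 60.0% of them after thinning, against 3.36% and 3.24% of erythroid cells. Schwann cells came next with 351 CPM (325 to 379) in WT, and in mutant with 453 CPM (407 to 503), which overlapped the endothelial interval. Satellite cells had 120 and 112 CPM. In mesenchymal cells, smooth muscle cells and pericytes it ranged from 68.1 to 94.1 CPM over both libraries. B cells had 1.26 and 4.69 CPM.

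Within glia, Tjp1 was higher in myelinating than in non-myelinating Schwann cells. The 319 WT and 147 mutant myelinating cells had 461 CPM and 505 CPM, and the 53 WT and 14 mutant non-myelinating cells had 147 CPM and 100 CPM. Ranges of counting error did not overlap between the glial types in either library. After thinning, 50.8% of WT and 55.6% of mutant myelinating cells had a UMI, against 25.5% and 23.1% of non-myelinating cells. Median depth was 3233 UMIs in WT myelinating and 7134 UMIs in WT non-myelinating cells, so the higher share was in the shallower cells. Cldn5 and Ocln had at most 3 UMIs in either glial type in either library, and Cldn1 had 8 UMIs in WT and 2 UMIs in mutant myelinating cells.

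VE-cadherin, encoded by Cdh5 (chromosome 8, 104101625 to 104144511, plus strand), is the adhesive core of endothelial adherens junctions. WT endothelial cells had 951 CPM (928 to 974), mutant endothelial cells 839 CPM (813 to 866), and the other cells 19.0 and 14.3 CPM. A UMI was present in 93% of WT and 91.5% of mutant endothelial cells, 83.2% and 78.8% after thinning. Erythroid cells had 6.49% and 2.14%, and 3.36% and 0.324% after thinning. The gene overlaps Gm29682 on the opposite strand, and whether counting used strand is not given in the sources used here. The same holds for Plvap with Gtpbp3 and for Tjp1 with Gm44795.

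Pecam1 (chromosome 11, 106654217 to 106750628, minus strand) encodes CD31, a contact adhesion molecule of endothelium, platelets and leukocytes. The WT library had 1328 CPM (1301 to 1355) and the mutant library 1301 CPM (1269 to 1335) in endothelial cells. Blood cells carried it too. B cells had 496 CPM (448 to 547) and 417 CPM (375 to 463), dendritic cells, 19 in WT and 23 in mutant, had 492 and 509 CPM, and T and NK cells had 185 and 299 CPM. Progenitors followed with 50.6 and 92.2 CPM. In B cells 54.2% of WT and 52.7% of mutant cells had a UMI after thinning, against 4.03% and 1.94% of erythroid cells. Cdh5 stayed at 6.31 and 3.52 CPM in the same B cells.

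Plvap (chromosome 8, 71497765 to 71511752, minus strand) encodes the protein of the diaphragms that span endothelial fenestrae, caveolae and transendothelial channels. WT endothelial cells had 418 CPM (403 to 433) and mutant endothelial cells 326 CPM (310 to 343). A UMI was seen in 23.2% of WT and 23.6% of mutant endothelial cells, 17.3% and 14.2% after thinning, and in 1.95% and 1.84% of erythroid cells, 0.336% and 0.485% after thinning. WT pericytes had 104 CPM, with 26 of 58 UMIs in 1 of 63 droplets, and mutant pericytes had 23.5 CPM. Mesenchymal cells had 19.9 and 17.3 CPM, with at most 5 UMIs in any droplet.

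**Figure D1:**
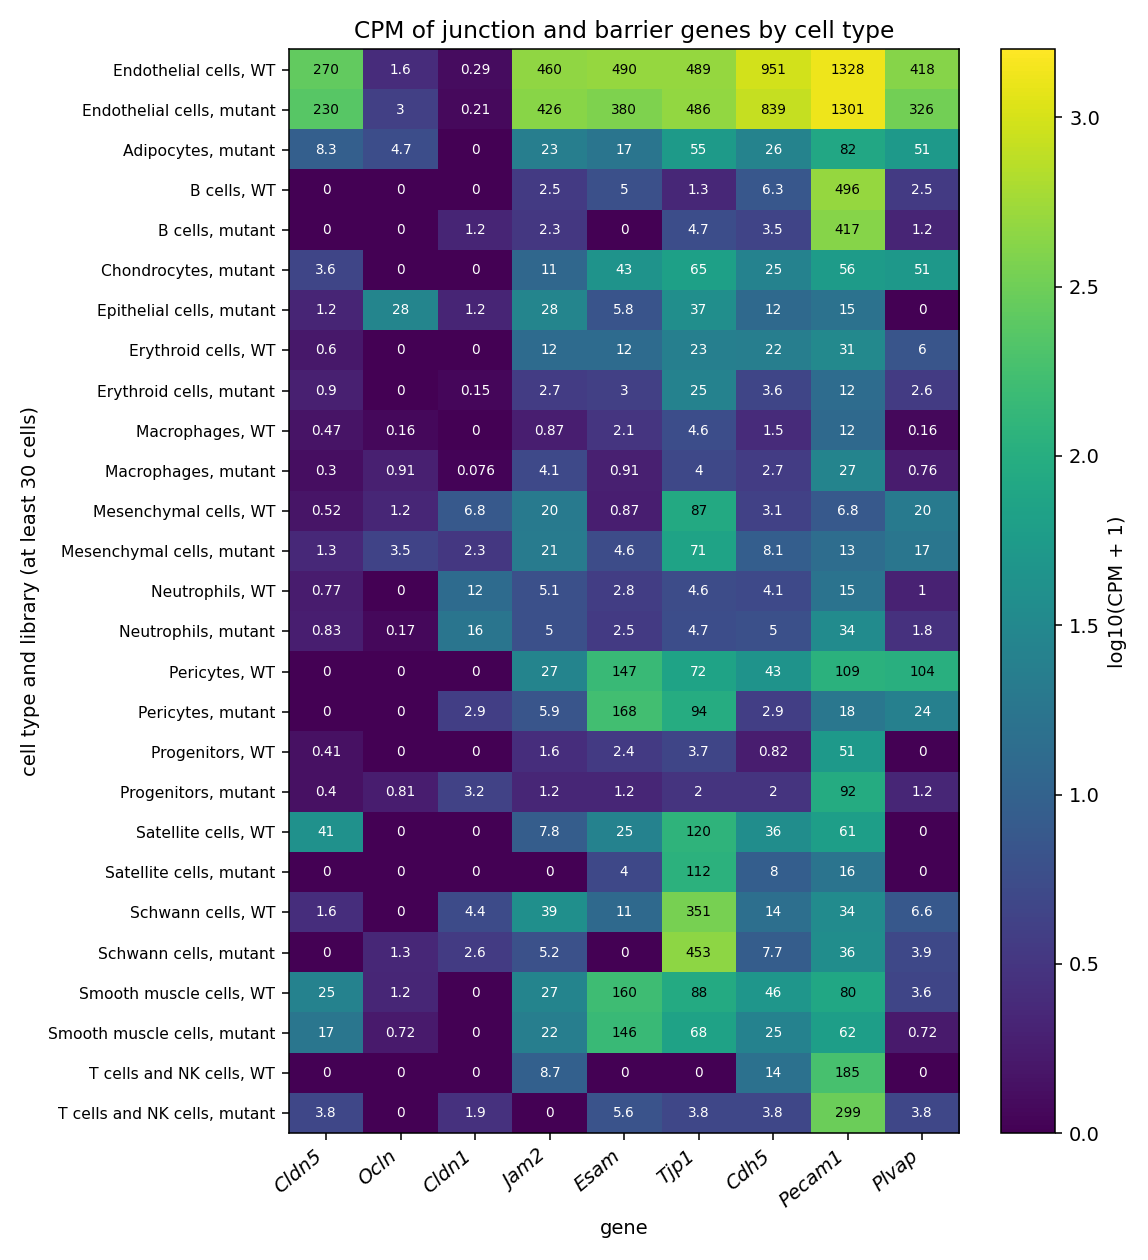
CPM of the 9 genes (columns) in each cell type of at least 30 cells per library (rows), printed in each cell and coloured as log10(CPM + 1). A peak in endothelial cells of both libraries is seen for 7 genes, with Pecam1 also at 496 and 417 CPM in B cells and Tjp1 at 351 and 453 CPM in Schwann cells, while Cldn1 peaks in neutrophils and Ocln in mutant epithelial cells.

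Of the 9 genes 7 were at least 4-fold higher in endothelial cells than in the other cells of their library, and the same 7 in each: Cldn5, Cdh5, Pecam1, Esam, Jam2, Tjp1 and Plvap. Over all genes the share was 5.8% of 15027 tested in WT and 6.63% of 15133 tested in mutant. The other cells included the shallow unnamed cluster with endothelial markers, which held 373 of their 784 Cdh5 UMIs in WT and 225 of 711 in mutant. For Cldn5 it held 49 of 152 and 49 of 179. The ratio was 73.6-fold in WT and 64-fold in mutant for Cldn5, 50.2-fold and 58.6-fold for Cdh5 and 51.9-fold and 32.5-fold for Plvap. Pecam1, Esam and Jam2 ranged from 23.0-fold to 30.0-fold. Tjp1 had the lowest ratio of the 7, 8.78-fold and 12.4-fold. A minimum of 50 UMIs in the library was required. Ocln, with 25 UMIs in all WT cells, was under it there and was 2.05-fold higher in mutant endothelial cells. Cldn1 was lower in endothelial cells than in the others, with 2 of 103 UMIs in WT and 1 of 145 in mutant.

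The endothelial cells were clustered again into 9 subclusters, named from vessel-type markers that did not include the 9 genes. Capillary cells (3 subclusters) numbered 586 in WT and 294 in mutant, venous cells 172 and 87, arterial cells 41 and 22, and lymphatic cells 12 and 4. Another 3 subclusters had no vessel-type name and are called by their leading gene, a Spock2-led one of 127 WT and 77 mutant cells, an Hbb-bt-led one of 71 and 86 cells, and a Prg4-led one of 32 and 7 cells. The Hbb-bt-led cells were shallow, with medians of 1181 and 1033.5 UMIs, and haemoglobin took 9.59% of their summed UMIs in the mutant and 0.0836% in WT. The median share per cell was 0.614% in the mutant and 0.103% in WT. The deepest WT lymphatic droplet held 87548 UMIs and the next 26674, so WT lymphatic values are given with and without it.

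Cldn5 was high in arteries and lymphatics and low in capillaries. Arterial cells had 975 CPM in WT and 743 CPM in mutant, and lymphatic cells had 932 CPM and 605 CPM, with overlapping intervals between the 2 types in each library. Without the deepest WT droplet the lymphatic level was 1130 CPM (914 to 1381) in 11 cells. Capillary cells were lowest, with 124 CPM (111 to 138) in the WT library and 113 CPM (97.8 to 130) in the mutant, and venous cells had 179 CPM and 256 CPM. All 12 WT and all 4 mutant lymphatic cells had at least 1 Cldn5 UMI.

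Plvap lay mainly in venous cells. WT venous cells held 957 CPM (920 to 995), mutant venous cells held 719 CPM (678 to 762), while capillary cells held 16.2 and 13 CPM. Arterial cells were between them at 120 and 107 CPM, and 1 droplet in each library held 24 of 40 and 20 of 34 of the arterial UMIs. In lymphatic cells 97 of the 110 WT UMIs were in the deepest droplet. With it the level was 641 CPM and without it 155 CPM (82.3 to 264), and the 4 mutant cells had 4 UMIs and 56.2 CPM (15.3 to 144). A Plvap UMI was present in 89.0% of WT and 81.6% of mutant venous cells, and 70.8% and 55.2% after thinning.

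Jam2 and Esam were low in lymphatic cells and high in blood vessels. Jam2 had 0 UMIs in the 12 WT and the 4 mutant lymphatic cells, which allows up to 17.5 and 42.2 CPM, against 670 and 692 CPM in capillary cells, 313 and 244 CPM in venous cells and 271 and 304 CPM in arterial cells. Esam was at 40.8 CPM and 28.1 CPM in lymphatic cells, from 7 and 2 UMIs, and 5 of the 7 were in the deepest WT droplet, without which WT had 23.8 CPM. In capillary, venous and arterial cells it lay between 390 and 539.5 CPM over both libraries. Tjp1 was highest in capillary cells of the named types, at 634 and 705 CPM, and the arterial, venous and lymphatic levels ranged from 155 to 363 CPM. Its WT lymphatic level was 268 CPM, and 262 CPM without the deepest droplet.

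Cdh5 and Pecam1 were present in every vessel type. Cdh5 was at 1093 and 996 CPM in capillary, 911 and 766 CPM in venous and 830 and 657 CPM in arterial cells, and was lower in lymphatic cells at 379 and 239 CPM, or 309 CPM in WT without the deepest droplet. Pecam1 was highest in arterial cells, at 1988 and 1625 CPM, with intervals above those of every other subcluster in each library. Its lymphatic level was 944 CPM in WT, 844 CPM without the deepest droplet, and 647 CPM in mutant.

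**Figure D2:**
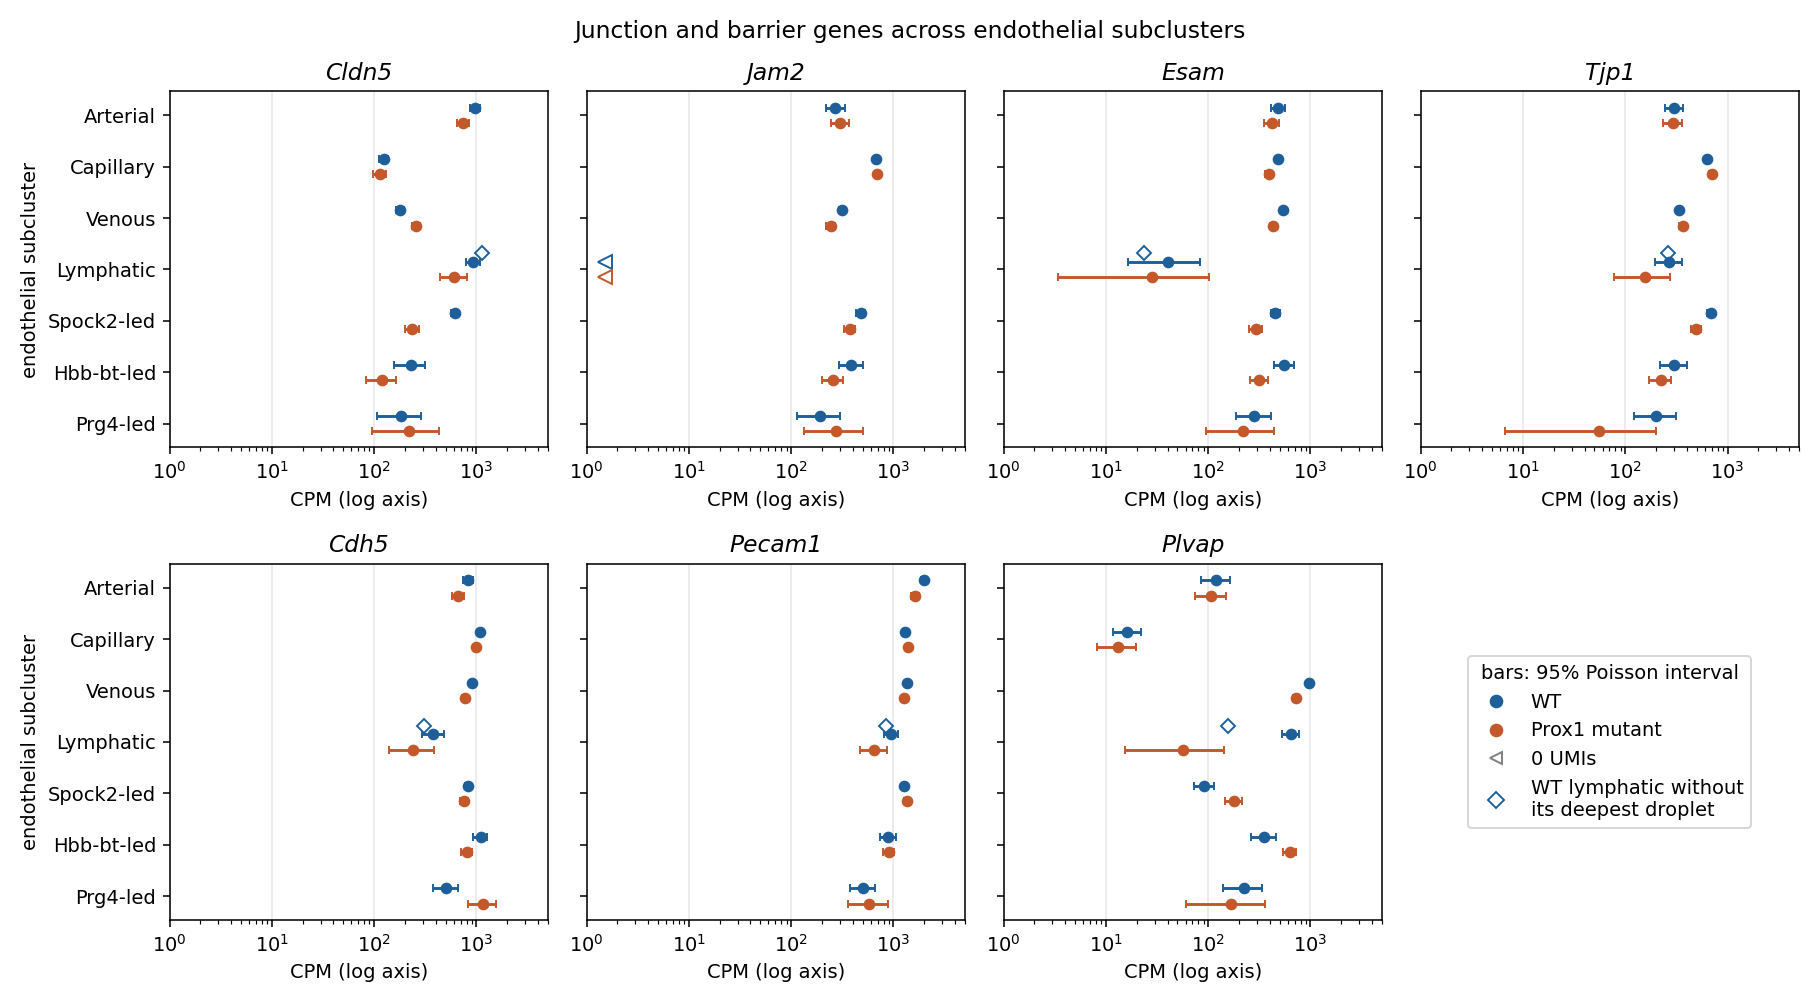
CPM (log axis) of 7 genes in the 7 groups of endothelial subclusters, WT in blue and mutant in orange, with 95% Poisson intervals; open triangles stand for 0 UMIs and open diamonds for WT lymphatic cells without their deepest droplet. Cldn5 is highest in arterial and lymphatic cells, Plvap in venous cells and Jam2 in capillary cells.

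A small group of deep endothelial droplets had high Cldn5 and Tjp1. The Spock2-led subcluster was nearest to nerve-barrier endothelium by its markers but had only 1 of 8 raised in the mutant, so it took no name. Droplets with at least 6 of these 8 markers were then counted, a choice made after the values were seen: 10 in WT and 1 in mutant, all in this subcluster, with 0 WT and 2 mutant droplets at 5 markers. The 10 WT droplets had a median of 16887 UMIs against 4392 in the other WT endothelial cells, and the marker count was not corrected for depth. The markers were Slc2a1, Mfsd2a, Slco1c1, Lef1, Abcb1a, Abcg2, Slc7a5 and Spock2, and the 9 genes were not used. Below, nerve-barrier droplets are called so after this marker list only, and which vessels they came from was not tested. Slc2a1 encodes the glucose transporter of barrier endothelium and Mfsd2a a lipid transporter that limits transcytosis there.

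In the 10 WT droplets Cldn5 ran from 6 to 107 UMIs per droplet, 410 UMIs in all, which is 2148 CPM against 218 CPM (207 to 229) in the other WT endothelial cells. Tjp1 ran from 9 to 51 UMIs, 1488 CPM against 461 CPM. Ocln had 9 UMIs over 4 droplets, 9 of the 11 in all WT endothelial cells. Plvap had 0 UMIs in 6 of the droplets and 99.6 CPM over all 10, against 427 CPM in the others. Esam was at 760 CPM, Cdh5 at 650 CPM, Pecam1 at 634 CPM and Jam2 at 257 CPM, and Cldn1 had 0 UMIs. The mutant droplet held 16 Cldn5 and 16 Tjp1 UMIs among 5000 UMIs, and 0 of Plvap and Ocln. The 2 mutant droplets with 5 markers differed, with Tjp1 at 312 CPM (156 to 558) against 483 CPM in the mutant cells with under 6 markers, Cldn5 at 511 CPM (303 to 807) against 227 CPM, and 1 Plvap UMI in each. The 10 WT droplets held 2.73% of all UMIs of WT endothelial cells and 21.6% of their Cldn5 UMIs, 410 of 1894.

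**Figure D3:**
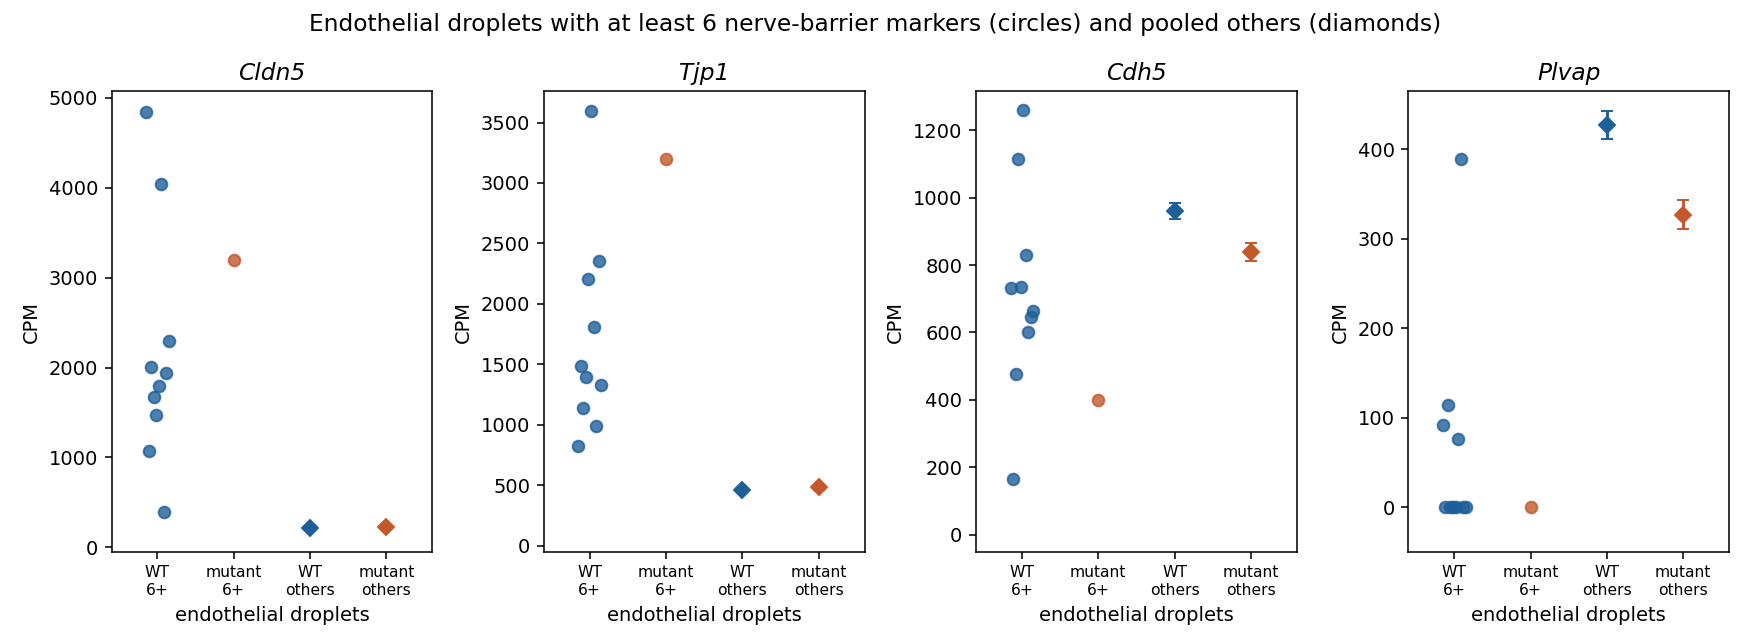
CPM of Cldn5, Tjp1, Cdh5 and Plvap in single endothelial droplets with at least 6 of 8 nerve-barrier markers (circles, 10 WT and 1 mutant) and in all other endothelial cells pooled (diamonds with 95% Poisson intervals). Every circle lies above the pooled level for Cldn5 and Tjp1, whereas all Plvap circles lie below the WT diamond.

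Between the genotypes, none of the 7 genes with at least 50 UMIs differed by 1.5-fold or more in endothelial cells. Over all 10691 genes with at least 50 UMIs, 6.55% were lower in mutant by that fold and 7.27% higher, 13.8% in either direction, and the median log2 ratio was 0.04. All 7 genes had log2 ratios of mutant over WT under 0, with a median of −0.18. Esam was at −0.37 (95% interval −0.45 to −0.28) and Plvap at −0.36 (−0.45 to −0.27). Cldn5 was at −0.23 (−0.34 to −0.12), Cdh5 at −0.18 (−0.24 to −0.12) and Jam2 at −0.11 (−0.19 to −0.03). Intervals of Pecam1 at −0.03 (−0.08 to 0.02) and Tjp1 at −0.01 (−0.09 to 0.07) included 0. Ocln and Cldn1 were under 50 UMIs and were not compared.

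The Cldn5 ratio was not below 0 without the nerve-barrier droplets. Cldn5 was then at 218 CPM in WT and 227 CPM in mutant, a log2 ratio of 0.06 (−0.05 to 0.18). The droplets held 410 of the 1894 WT and 16 of the 1073 mutant Cldn5 UMIs. Leaving them out was therefore bound to raise this ratio. Tjp1 was at 0.07 (−0.01 to 0.14), an interval that included 0 as it did with them. Esam was at −0.34 and Plvap at −0.39. Haemoglobin RNA took 0.157% of UMIs in WT and 1.37% in mutant endothelial cells, and the erythroid marker list, all 8 detected in both, summed to 439 and 3106 CPM. Other lists moved as well: neutrophil markers, 9 of 9 detected in both, summed to 277 and 611 CPM, epithelial markers, 4 of 11 and 7 of 11 detected with Krt8, Krt19, Krt5 and Krt7 at 0 in both, to 22.7 and 176 CPM, mesenchymal markers, 10 of 10 in both, to 194 and 116 CPM, and chondrocyte markers, 8 of 8 in both, to 27.3 and 4.08 CPM. Their part in the differences was not tested. Genotype and library cannot be told apart here.

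**Figure D4:**
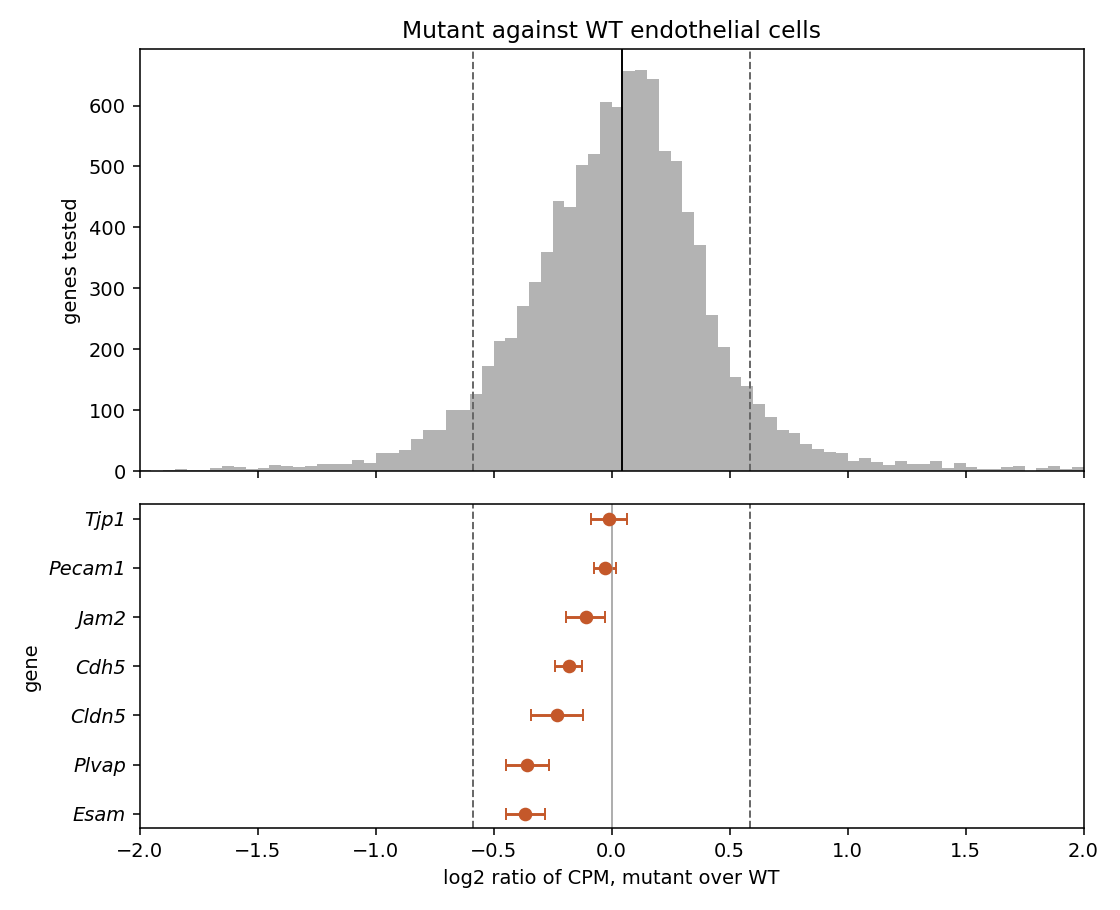
Upper panel, number of genes (y axis) by log2 ratio of CPM in mutant over WT endothelial cells, for genes with at least 50 UMIs and ratios from −2 to 2, with the median as a solid line. Lower panel, the same ratio for 7 genes with 95% intervals; dashed lines mark 1.5-fold, and all 7 points lie between them.

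Within vessel types most ratios were also under 1.5-fold. In capillary, venous and arterial cells 0 of the 7 genes passed it, where 7.79%, 10.7% and 8.97% of genes with at least 50 UMIs were lower and 9.67%, 9.05% and 10.1% higher. Cldn5 was at −0.13 in capillary, −0.39 in arterial and 0.52 (0.33 to 0.71) in venous cells. Esam was at −0.32 in capillary, −0.33 in venous and −0.20 (−0.54 to 0.15) in arterial cells. Plvap in venous cells, which held most of its UMIs, was at −0.41 (−0.51 to −0.31).

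In the Spock2-led subcluster 3 genes passed 1.5-fold, where 14.4% of genes were lower and 8.91% higher. Cldn5 was lower at −1.38 (−1.65 to −1.12), with 611 CPM in WT and 235 CPM in mutant, and Esam lower at −0.64 (−0.90 to −0.39). Without the droplets with 6 or more nerve-barrier markers these became 0.11 (−0.24 to 0.47) and −0.35 (−0.63 to −0.07). The droplets held 410 of the 548 WT Cldn5 UMIs here, so the Cldn5 ratio was bound to rise. Plvap was higher at 0.96 (0.54 to 1.39), and 1.01 without those droplets. The ratio was 0.62 (0.11 to 1.13) when the droplet richest in Plvap was left out in each library, since 43 of 113 mutant UMIs lay in 1 droplet.

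In the 12 WT and 4 mutant lymphatic cells 4 genes passed 1.5-fold, all lower in mutant, where 32.7% of 957 genes with at least 50 UMIs were lower and 17% higher. Prox1, a lymphatic marker and the mutated gene, was at 1261 CPM in WT lymphatic cells without the deepest droplet. Cldn5 was at −0.62 (−1.15 to −0.13), and −0.90 (−1.46 to −0.37) without the deepest WT droplet. It was −2.15 (−3.2 to −1.24) without the droplet richest in Cldn5 in each library, since 32 of the 43 mutant UMIs lay in 1 droplet. By droplet, Cldn5 ranged from 1 to 65 UMIs in WT and was 1, 32, 9 and 1 in mutant, in droplets of 33180, 27974, 6116 and 3844 UMIs. The deepest mutant droplet thus held 33180 of 71114 mutant lymphatic UMIs but 1 of the 43 Cldn5 UMIs. It stayed in every Cldn5 ratio given here, which lowered each of them. A Cldn5 ratio without the deepest droplet of both libraries was not computed. Plvap was at −3.51 with the deepest WT droplet, and Cdh5 at −0.66 and Tjp1 at −0.79 had intervals that included 0. Without the deepest WT droplet these 3 genes had under 50 UMIs in all and were not compared. That left Cldn5 as the only one of the 4 past 1.5-fold, with the deepest mutant droplet still included.

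The Hbb-bt-led cells had 3 genes lower and 1 higher by 1.5-fold, where 21.6% of genes were lower and 15.5% higher. Cldn5 was at −0.93 (−1.65 to −0.21), Esam at −0.82 and Jam2 at −0.60, and Plvap was at 0.86 (0.41 to 1.33). For Plvap 101 of 190 mutant UMIs lay in 1 droplet, and the ratio was 0.22 (−0.31 to 0.76) without the richest droplet of each library. Leaving out each gene's own richest droplets in the same way moved Cdh5 from −0.44 to −0.60, past 1.5-fold, Jam2 to −1.04, Cldn5 to −1.06 and Esam to −0.97, so that 4 genes were lower and 0 higher. In the Prg4-led cells Cdh5 was higher at 1.20, from 50 and 42 UMIs, where 27.1% of 340 genes were lower and 16.2% higher. In the shallow unnamed cluster with endothelial markers 3 of 6 genes with at least 50 UMIs were lower by 1.5-fold, where 14.6% of 3844 genes were lower and 12.1% higher. Cdh5 was at −0.84, Pecam1 at −0.63 and Esam at −1.04, while Cldn5 was at −0.11, Jam2 at −0.18 and Tjp1 at −0.47. Haemoglobin took 0.142% of the summed WT and 6.74% of the summed mutant UMIs of this cluster, with median shares per droplet of 0.0875% and 0.444%. The part of haemoglobin in these values was not tested.

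Taking both directions together, the wider families of junction and barrier genes passed 1.5-fold about as often as all genes. By direction they differed in all endothelial cells, with more of them lower in mutant and fewer higher. Of the lower ones, Mfsd2a, Lef1, Slco1a4 and Slc2a1 were not called without the nerve-barrier droplets, which all but Slco1a4 had helped to choose. Cldn15 at −0.74 and Cavin3 at −0.64 then stayed lower, and Jam3 at 0.77 and Lsr at 0.92 (0.10 to 1.75) were higher. The droplets held 28 of the 52 WT Lsr UMIs, so the Lsr ratio was bound to rise. Of 61 genes in 6 lists, 48 had at least 50 UMIs in endothelial cells, and 1 was higher and 6 were lower by 1.5-fold, where 7.27% of all genes were higher and 6.55% lower, with a list median of −0.07 against 0.04 over all genes tested. Of the adherens junction proteins 0 of 9 passed, from Ctnnb1, the β-catenin that binds VE-cadherin, at −0.25 to Afdn, the actin linker afadin, at 0.37. Nectin3 was at −0.16 and Cdh13 at 0.27. Of the contact and junction regulators 0 of 16 passed, from Ramp2, a partner of the adrenomedullin receptor, at −0.53 and the sphingosine-1-phosphate receptor S1pr1 at −0.37 to Heg1 at 0.26 and Cd99l2 at 0.33. Gap junction proteins were all under 0 with 0 of 4 past the fold, from Gja4 at −0.57 and Gja5 at −0.45 through Gja1 at −0.38 to Gjc1 at −0.14.

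Among the tight junction proteins 7 of 16 had at least 50 UMIs. Jam3, another junctional adhesion molecule, was higher at 0.68 (0.43 to 0.94), with 35.4 CPM in WT and 56.9 CPM in mutant. Cldn15 was lower at −0.70 (−1.16 to −0.25), with 20.6 and 12.7 CPM. Cgnl1 was at −0.20 and Cldn12 at 0.38.

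The caveolae and transcytosis list had 2 of 7 genes lower, where 6.55% of all genes were. Cavin3, which helps to shape caveolae, was at −0.63 (−0.76 to −0.51), with 239 CPM in WT and 154 CPM in mutant, and −0.64 without the nerve-barrier droplets. Cav1 was at −0.05 and Cavin1 at 0.01. Mfsd2a had 88 UMIs in WT and 1 UMI in mutant, and 86 of the 88 were in the 10 droplets it had helped to choose.

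Of the barrier transporters and barrier genes 3 of 5 with at least 50 UMIs were lower, where 6.55% of all genes were, with a median of −1.09. These were Lef1, a Wnt effector, at −2.36 with 34.1 CPM in WT and 6.66 CPM in mutant, the organic anion transporter Slco1a4 at −2 with 38.7 and 9.67 CPM, and Slc2a1 at −1.09 with 63.8 and 30.1 CPM. Abcg2 was at −0.49 and Abcb1a at −0.30. Slco1a4 was not used to choose the droplets, and 262 of its 271 WT UMIs lay in them. Without the 10 WT and 1 mutant droplets its CPM was 1.32 in WT and 8.60 in mutant, the other way round, though from 9 and 40 UMIs. Slc2a1 was then at −0.24 (−0.55 to 0.08), and Lef1 had 18 and 23 UMIs. Both were among the markers that chose the droplets, which held 216 of 447 WT Slc2a1 UMIs and 221 of 239 WT Lef1 UMIs. Their ratios were therefore bound to shift when the droplets were left out.

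**Figure D5:**
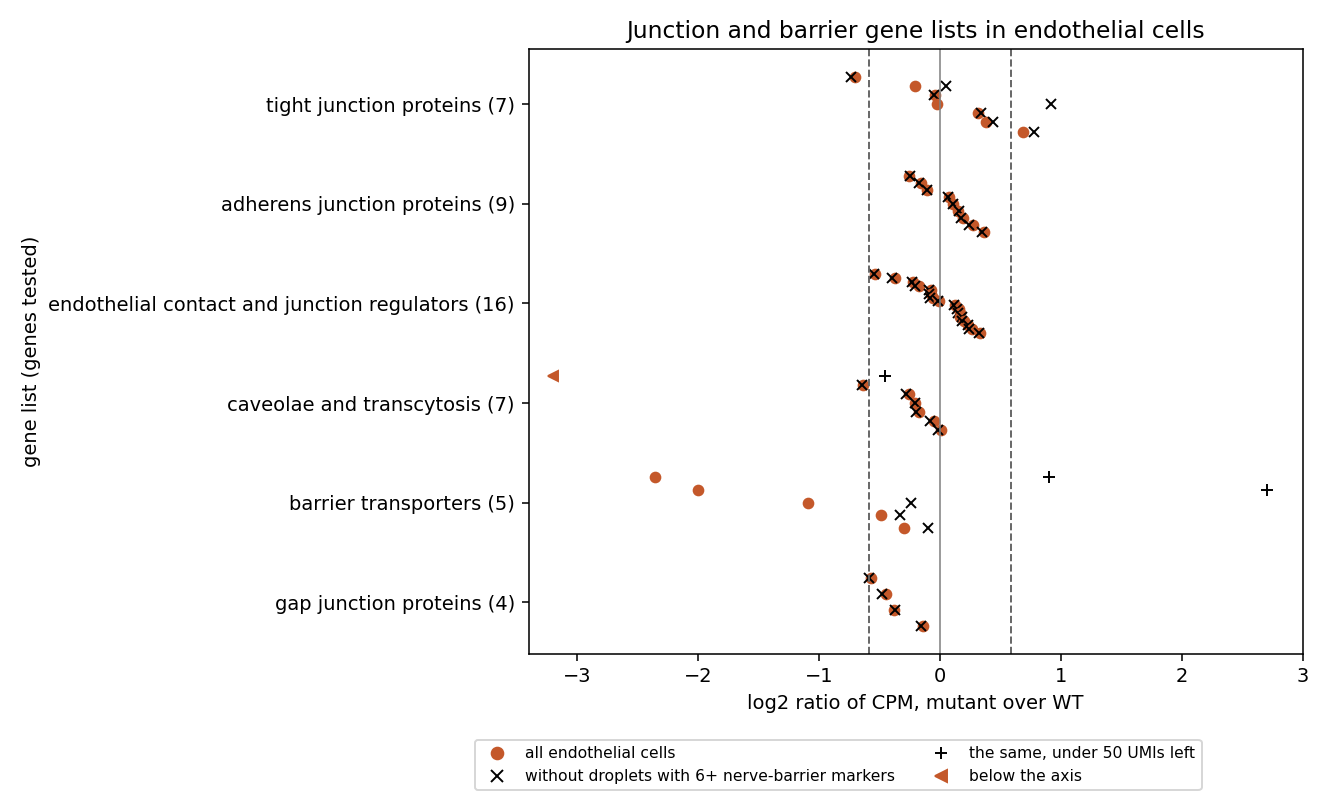
Log2 ratio of CPM in mutant over WT endothelial cells for 48 genes in 6 lists; orange circles use all endothelial cells, black crosses leave out the droplets with at least 6 nerve-barrier markers, plus signs do so with under 50 UMIs left, and the triangle is Mfsd2a, below the axis. Lef1, Slco1a4 and Slc2a1 lie left of the 1.5-fold line at −2.36, −2 and −1.09 and move right when the droplets are left out. Lef1 and Slc2a1 were among the markers that chose those droplets.

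Across cell types, the genes whose patterns were most like each of the 9 were found by correlating log2(CPM + 5) over 27 points, which were 15 cell types of at least 30 cells in either library, for 13695 genes. The points share 2 libraries and their depths, so the coefficients are descriptions. Cldn5 was most like She (r = 0.960), Gja5 (0.960), an arterial connexin, and Mannr (0.948). Cdh5 was most like Ptprb (0.966), the phosphatase that acts on VE-cadherin, Sox7 (0.965) and Arhgef15 (0.965). Ptprb was also 1 of the 12 markers that named the endothelial clusters, so its pattern over the named types was not independent of the names. Pecam1 was nearest to Gimap6 (0.933), Icam2 (0.927) and Gimap5 (0.885), and Esam to Gja4 (0.937), Lmcd1 (0.926) and Vsig2 (0.922). Jam2 was nearest to Fgd5 (0.937), Tmem44 (0.924) and Kif26a (0.915), and Tjp1 to Ptpn14 (0.95), E130102H24Rik (0.944) and Hspg2 (0.942). For Plvap they were Slco2a1 (0.929), Ubd (0.906) and Fam167b (0.894), and for Cldn1, Gm28905 (0.840), Tmem40 (0.828) and Ppp1r42 (0.816). Ocln had under 200 UMIs over both libraries and was left out. Among the 9 genes themselves, Cldn5 and Cdh5 correlated at 0.907 and Cdh5 and Jam2 at 0.906, whereas Pecam1 and Tjp1 correlated at 0.0722.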

How the data were processed

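Single cells of the TMJ were captured with 10x Genomics chemistry, and the authors deposited raw UMI counts per gene and barcode for each library, made with Cell Ranger 7.0.1 on mm10 per the submitters' processing notes. The labels and the study's methods name different kit versions and enzymes, and which applies could not be settled. Barcodes had to show 500 or more genes and less than 10% mitochondrial UMIs. Those kept were normalised with SCTransform (sctransform 0.4.2), integrated and clustered in Seurat 5.3.0 (R 4.3.3; 200 principal components, resolution 1.5), with the 9 genes left out of the features. Endothelial and Schwann cells were clustered again with 30 components at resolution 0.5. A cluster took a name where at least 3 markers of that type were raised, counting both libraries together. Its depth and leading genes also had not to go against the name. Endothelial subclusters further needed 3 markers raised in each library, where that library had enough cells. The lymphatic one, with 12 and 4 cells, was too small for this check. Details of this rule were settled after clusters had been seen.

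UMIs were summed per library and set of cells, since cells are not replicates. CPM carry exact Poisson and shares exact Clopper-Pearson 95% intervals (scipy 1.17.1, Python 3.11.15), and ratios between libraries carry exact binomial ones. A gene was called at 1.5-fold with at least 50 UMIs over both libraries. Sets of cells whose UMIs were 0 have a limit of 3 counts. Shares were also computed after thinning to 2000 UMIs. Scrublet's own threshold called 0 doublets, so doublets were kept, and the alternative removed the 239 WT and 462 mutant barcodes that scored highest. In simulated counts for 10563 genes in endothelial cells, 97.5% of 200 genes changed by 2-fold were called and 2.11% of the unchanged ones. These were Poisson counts with no variation between cells, mice or libraries. They therefore give no rate of false calls between the genotypes. Named genes were the 9, the 2 highest and 2 lowest ratios of each list, and 3 genes of like pattern per member, while Slc2a1, Slco1c1, the marker genes of the droplets and Prox1 were named outside this rule after their values were seen. The genes, the lists and the comparisons were chosen with earlier results of these data known. Sequences came from RefSeq (GRCm38.p6). Alternatives covered filters, doublets, integration, components, resolution, features, the definition of endothelial cells, the denominator, scaling, cell weights, subtype mix, thinning depth and the UMI minimum.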

Additional observations from a re-analysis of the deposited data

Results flagged for a closer look

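Plvap, the diaphragm gene, differed between WT and mutant in opposite directions in different endothelial subclusters, each with a counting interval that left out 0. Its log2 ratio of mutant over WT was 0.86 in the Hbb-bt-led cells, 0.96 in the Spock2-led cells and −3.51 in lymphatic cells. With 1 library per genotype the difference between the subclusters was not tested. Single droplets held much of the signal. In lymphatic cells 97 of the 110 WT UMIs were in 1 of 12 droplets, and the 13 WT and 4 mutant UMIs left without it were under the minimum of 50. In the Hbb-bt-led cells 101 of 190 mutant UMIs were in 1 droplet, and the ratio was 0.22 (−0.31 to 0.76) without the richest droplet of each library. In the Spock2-led cells 43 of 113 mutant UMIs were in 1 droplet, and the ratio was 0.62 (0.11 to 1.13) without it and its WT counterpart.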

How the results depend on the processing

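No paired analysis was possible because each genotype had 1 library. Under 17 alternatives, 3 of them chosen after seeing the data, 7 of the 9 genes were at least 4-fold higher in endothelial cells of each library. The exception was WT at a minimum of 20 UMIs, which had 8, with Ocln added. The mean of CPM per cell, scaling to the median ratio and subtype weights do not enter this count, so those settings could not change it. The count of the 9 genes past 1.5-fold between libraries was 0, and 2 (Esam at −0.68, Plvap at −0.60) when endothelial cells were taken as those with at least 3 UMIs over 5 markers, without clusters, which gave 1407 WT and 1163 mutant cells, and 1 (Ocln at 0.94, 25 UMIs) with a minimum of 20 UMIs. Genes called lower numbered 700, against 1198 in the cells taken without clusters and 1075 and 348 with a minimum of 20 and 200 UMIs. Genes called higher numbered 777, against 1235, 1283 and 267 under the same settings and 1221 with the mean of CPM per cell. Over 15 settings that give a ratio, the log2 ratio was under 0 in all 15 for Cdh5, Esam, Jam2 and Plvap, in 14 for Cldn5 and Pecam1 and in 10 for Tjp1. Plvap ran from −0.60 to −0.03. The latter applied the same mix of subtypes, their mean shares of cells over the libraries, to both genotypes. The main value instead weights each subtype by its UMIs, so this setting changed the weights as well as the mix. It cannot show what the mix alone did. Cldn5 ran from −0.57 to 0.06, the latter without the nerve-barrier droplets, also chosen after seeing the data. Their high Cldn5 meant that leaving them out had to raise the ratio. The cause of these shifts was not tested. Of 105 ratios 16 lay outside the 95% counting interval of the value in the main processing. So did 68 of 270 CPM values, and 28 of 36 thinned shares at 1000 or 3000 UMIs. Apart from sampling, a share must fall with fewer UMIs per cell and rise with more. The count of moved shares is therefore no measure of dependence on the processing. Levels of Cldn5 and Cdh5 were lowest in the cells taken without clusters, with Cldn5 at 163 CPM in WT and 110 CPM in mutant, against 270 and 230, and Cdh5 at 592 and 401 CPM, against 951 and 839. One library per genotype limits every ratio between them, and 12 WT and 4 mutant lymphatic cells, 10 nerve-barrier droplets and counts under 50 for Ocln and Cldn1 limit the rest.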
